A study of Mus musculus with 12 samples.

Results

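The serine synthesis and folate enzymes described here are the products of 8 genes: Phgdh, Psat1, Psph, Shmt1, Shmt2, Mthfd1, Mthfd1l and Mthfd2. They were chosen by name, and every probe set whose annotation gave one of them as its single gene symbol was taken, which gave 21 probe sets for 8 of the 18193 genes represented on the array. For each gene the probe set with the highest mean stood for the gene in the tests, and all 8 genes and all 21 probe sets passed the filter on low signal.

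The cells were CD8 T cells purified from spleens of male mice with an enrichment kit, and the study asked what loss of Scap does in them. Scap encodes the protein that escorts SREBP transcription factors from the endoplasmic reticulum to the Golgi for activation. The controls (WT) had the genotype Cd4-Cre/Scap+/+ and the knockouts (KO) Cd4-Cre/Scapfl/fl, so all animals carried the Cre transgene, which the Cd4 promoter drives in T cells in general and not only in the CD8 lineage. Cells were profiled quiescent (T0) or after 6 h on plate-bound anti-CD3 with soluble anti-CD28 (T6), with 3 arrays in each of the 4 groups WT T0, WT T6, KO T0 and KO T6. The age of the mice is not given in the sources used here.

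Phgdh, Psat1 and Psph act in sequence: the first oxidises the glycolytic intermediate 3-phosphoglycerate, the next transfers an amino group from glutamate, and the last removes the phosphate to release serine. Shmt1 in the cytosol and Shmt2 in mitochondria move a carbon unit from serine to tetrahydrofolate and leave glycine. Mthfd2 and Mthfd1l carry that unit on to formate inside mitochondria, and Mthfd1 interconverts the folate forms in the cytosol, where they feed purine and thymidylate synthesis. The pathway is known for supplying nucleotide precursors to T cells that are leaving quiescence.

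The RefSeq promoter windows of all 8 genes could be matched, 9 windows in all since Psat1 has a pair of annotated starts. Each window runs from 250 bases before to 50 bases after the start, in assembly GRCm38.p6. The 5 genes printed here are those whose signal rose on activation in both genotypes, so that the letters upstream of genes that moved together can be compared. The other 3 genes lie on chromosomes 5 (Psph), 12 (Mthfd1) and 10 (Mthfd1l). Capitals mark CCAAT (or ATTGG, its reverse complement) and GGGCGG (or CCGCCC). For Psat1 the window of the upstream start is shown.
Phgdh promoter, chr3:98339920-98340219, minus strand: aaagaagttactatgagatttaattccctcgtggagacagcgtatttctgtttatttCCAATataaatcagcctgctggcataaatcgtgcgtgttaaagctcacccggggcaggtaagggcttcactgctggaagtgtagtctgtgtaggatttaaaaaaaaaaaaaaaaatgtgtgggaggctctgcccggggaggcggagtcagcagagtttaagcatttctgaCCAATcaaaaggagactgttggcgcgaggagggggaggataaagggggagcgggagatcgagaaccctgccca
Psat1 promoter, chr19:15925010-15925309, minus strand: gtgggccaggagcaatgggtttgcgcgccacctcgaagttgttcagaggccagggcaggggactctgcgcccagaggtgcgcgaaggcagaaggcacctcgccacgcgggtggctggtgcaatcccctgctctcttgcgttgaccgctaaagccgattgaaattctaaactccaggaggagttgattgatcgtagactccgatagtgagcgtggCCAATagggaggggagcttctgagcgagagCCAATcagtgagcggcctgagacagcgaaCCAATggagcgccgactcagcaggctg
Shmt1 promoter, chr11:60811216-60811515, minus strand: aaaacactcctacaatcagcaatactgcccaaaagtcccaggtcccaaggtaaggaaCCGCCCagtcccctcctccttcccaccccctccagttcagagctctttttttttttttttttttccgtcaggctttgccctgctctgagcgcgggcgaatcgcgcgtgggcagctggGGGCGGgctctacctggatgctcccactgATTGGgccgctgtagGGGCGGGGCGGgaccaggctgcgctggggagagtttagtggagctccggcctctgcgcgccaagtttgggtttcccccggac
Shmt2 promoter, chr10:127522395-127522694, minus strand: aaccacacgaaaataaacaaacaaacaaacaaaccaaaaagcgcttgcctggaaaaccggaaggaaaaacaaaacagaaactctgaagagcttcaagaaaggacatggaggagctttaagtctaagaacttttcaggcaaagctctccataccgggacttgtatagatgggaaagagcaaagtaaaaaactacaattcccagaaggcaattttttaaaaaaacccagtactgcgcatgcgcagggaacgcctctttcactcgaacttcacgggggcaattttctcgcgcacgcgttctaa
Mthfd2 promoter, chr6:83317555-83317854, minus strand: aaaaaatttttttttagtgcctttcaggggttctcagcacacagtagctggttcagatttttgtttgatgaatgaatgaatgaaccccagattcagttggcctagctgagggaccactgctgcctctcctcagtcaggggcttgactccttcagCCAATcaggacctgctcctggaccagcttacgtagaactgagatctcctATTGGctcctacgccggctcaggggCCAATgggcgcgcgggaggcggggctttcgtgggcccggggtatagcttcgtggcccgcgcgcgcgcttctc

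A search of the 9 windows on both strands found no TGATGNAA, the C/EBP-ATF response element bound by ATF4 dimers, which 3.97% of all 32851 promoter windows hold. It found no CACGTG, the E-box bound by Myc and Max (7.15% of all windows), and no match to a form of the sterol regulatory element, the motif bound by SREBP (0.234%). CCAAT, bound by NF-Y, was present in 6 of the 9 windows against 37.4% of all windows, and GGGCGG, bound by Sp1, in 5 of the 9 against 35.7%. These last motifs were chosen after the sequences had been seen. Among the printed windows, that of Psat1 held CCAAT at 3 places and that of Shmt2 held neither motif. Such matches are descriptions of letters in a short window, and the absence of one says nothing of the factor.

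Within groups, the correlation between arrays was 0.969 to 0.978 over all probe sets, and array medians lay between 61.3 and 76.2 signal units. Scap signal, the targeted gene, was 11.53, 11.03 and 11.23 on the WT T0 arrays, 11.27, 10.83 and 10.93 in KO T0, 11.56, 11.55 and 11.60 in WT T6 and 11.11, 11.06 and 11.13 in KO T6 (log2). The KO difference was -0.25 at T0 (limma adjusted p = 0.593) and -0.47 at T6 (adjusted p = 0.273), and where the probes lie relative to the deleted part was not analysed here. The label was checked against markers: Cd8a lay between 12.70 and 13.49 as group means, while Cd4 lay between 4.57 and 5.04, below the filter level of 5.64 to 5.88. Of the other CD4 T cell markers, Zbtb7b lay above that level in every group, between 6.02 and 7.36 (the highest in KO T0). Foxp3 lay around it, between 5.56 and 6.24. The B cell marker Ighm gave signal in every group, from 14.50 to 14.86. At both times 12 of 12 B cell, 12 of 12 myeloid and 6 of 6 erythroid markers tested were higher in KO. All 9 CD8 T cell markers tested were lower at both times. Of 13 cycling cell markers 13 were higher in KO at T0 and 12 at T6. Over all genes tested, 49.96% were higher in KO at T0 and 57.12% at T6. These are counts of direction: of the markers tested only the myeloid marker Tyrobp was called, at T6 (limma adjusted p = 0.0483). In bulk RNA, fewer cells of a type and less RNA per cell cannot be told apart. KO T0 replicate 2 and KO T6 replicate 2 stood apart, with mean cycling marker levels of 12.08 and 12.09 against 10.08 to 11.44 on the other arrays.

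In WT cells 6 of the 8 genes rose on activation: Shmt1, Mthfd2, Psat1, Shmt2, Phgdh and Mthfd1l. Psph and Mthfd1 did not pass the test. Over all 13156 genes tested, 11.3% were called higher in the same comparison. The 3 arrays at T6 lay above the 3 at T0 for 7 of the 8 genes, against 19.2% of all genes. The median log2 change was 0.86 over the 8 genes and -0.06 over all genes tested. In KO cells 5 of the 8 rose, against 10.4% of all genes, and the groups did not overlap for the same number of genes, against 18.9%. The KO median was again 0.86 (all genes -0.0036). Signals are given as log2(signal + 16), or as linear signal with SD over 3 arrays. Each standard error (SE) is from the limma fit, and a call is an adjusted p (Benjamini-Hochberg, over all genes tested) under 0.05. The fit was not paired, since the labels do not say which arrays share a mouse.

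**Figure D1:**
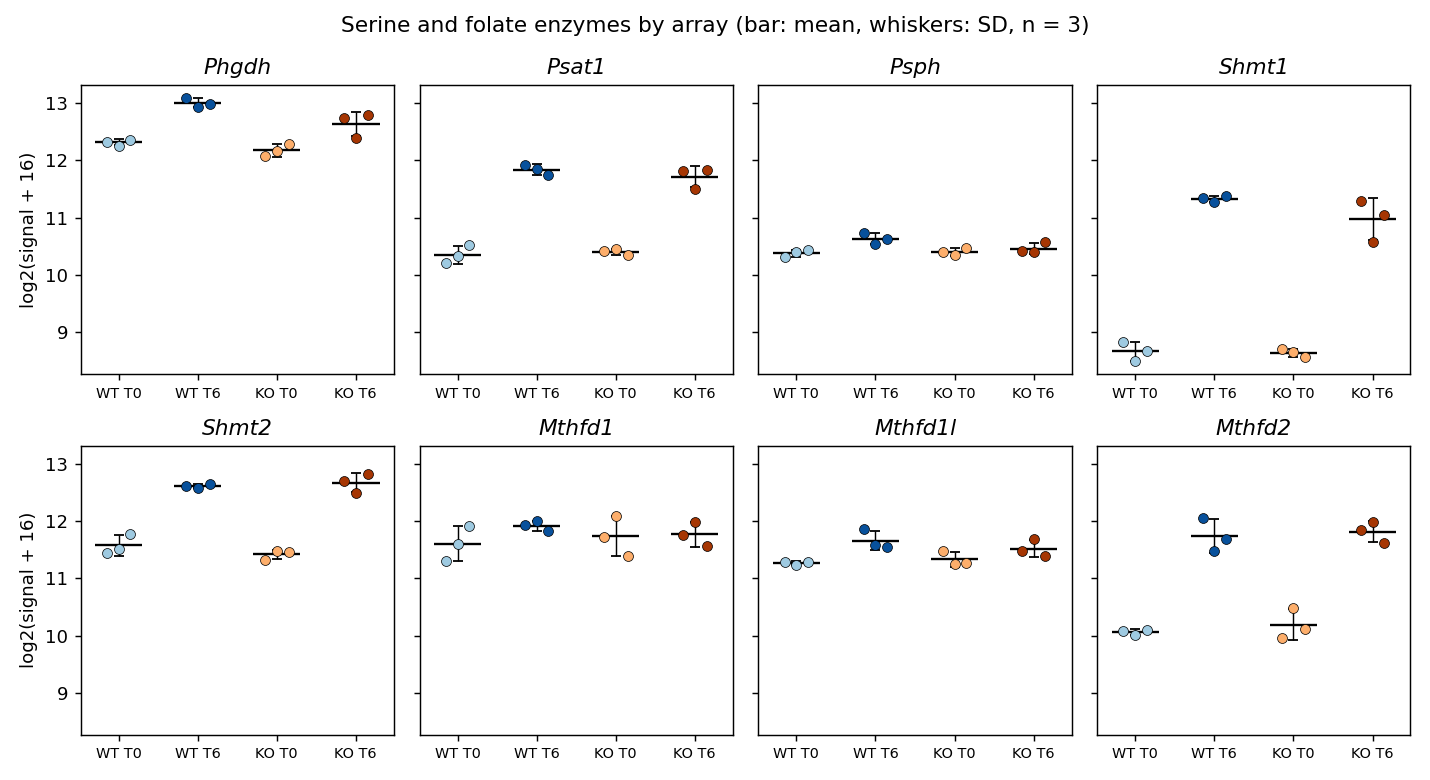
Signal of the 8 genes on each array, as log2(signal + 16), with 1 panel per gene and the groups WT T0, WT T6, KO T0 and KO T6 on the x axis. Points are arrays, bars are group means and whiskers are SD (n = 3). The T6 points of Shmt1 (10.57 to 11.38) lie above all T0 points (8.50 to 8.82), while those of Mthfd1 overlap with T0.

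Phgdh, which commits 3-phosphoglycerate to serine, lay between percentiles 96.2 and 98.3 of every array. It measured 12.33, 12.26 and 12.36 in WT T0 and 13.09, 12.93 and 12.99 in WT T6. In KO it measured 12.08, 12.16 and 12.29 at T0 and 12.73, 12.39 and 12.79 at T6. The T6 arrays lay above the T0 arrays in both genotypes. In linear signal the mean went from 5089 ± 186 to 8203 ± 452 in WT and from 4613 ± 344 to 6394 ± 911 in KO (SD, n = 3). Phgdh rose by 0.69 in WT (SE 0.12, 1.61-fold, limma adjusted p = 0.00205) and by 0.46 in KO (SE 0.12, 1.38-fold, adjusted p = 0.0178). The KO call was lost without KO T0 replicate 1 (adjusted p = 0.066), without replicate 1 (0.0668) or 3 (0.0704) of KO T6, and in a fit of the KO arrays alone (0.0894). Without KO T6 replicate 2 the rise was 0.58 (0.00347).

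Psat1, the aminotransferase that makes phosphoserine, had signals of 10.21, 10.33 and 10.52 in WT T0 and 11.93, 11.84 and 11.74 in WT T6. In KO they were 10.41, 10.46 and 10.35 at T0 and 11.81, 11.50 and 11.83 at T6. Every T6 array lay above every T0 array of either genotype. In linear signal the mean went from 1297 ± 142 to 3644 ± 241 in WT and from 1342 ± 51.8 to 3366 ± 417 in KO (SD, n = 3). The rise was 1.48 in WT (SE 0.12, 2.79-fold, limma adjusted p = 2.28e-05) and 1.31 in KO (SE 0.12, 2.48-fold, adjusted p = 6.36e-05).

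Psph, the phosphatase that releases serine, showed the smallest difference of the serine branch. It measured 10.31, 10.40 and 10.43 in WT T0 against 10.73, 10.55 and 10.63 in WT T6, which did not overlap. In KO it measured 10.40, 10.34 and 10.48 at T0 against 10.41, 10.40 and 10.57 at T6, which did. The log2 difference of 0.26 in WT (SE 0.09, limma adjusted p = 0.0635) and that of 0.06 in KO (SE 0.09, adjusted p = 0.721) were not called. The WT value passed with each array centred on its median (0.37, adjusted p = 0.0321), with the stricter filter (0.0357) and with a random replicate block (0.0376).

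Shmt1, the cytosolic serine hydroxymethyltransferase, had the largest change of the 8 genes in both genotypes. Its signal was 8.82, 8.50 and 8.67 in WT T0 and 11.33, 11.28 and 11.38 in WT T6. In KO it was 8.71, 8.65 and 8.57 at T0 and 11.29, 10.57 and 11.05 at T6. The quiescent arrays of both genotypes shared a narrow range, and KO T6 replicate 2 was the lowest activated array. In linear signal the mean went from 391 ± 45.5 to 2563 ± 89.8 in WT and from 384 ± 19.6 to 2034 ± 494 in KO (SD, n = 3). Shmt1 rose by 2.67 in WT (SE 0.16, 6.36-fold, limma adjusted p = 4.75e-06), the 40th smallest p of 13156 genes. It rose by 2.33 in KO (SE 0.16, 5.03-fold, adjusted p = 1.33e-05).

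Shmt2, the mitochondrial isozyme, measured 11.44, 11.51 and 11.78 in WT T0 and 12.62, 12.58 and 12.64 in WT T6. In KO it measured 11.33, 11.48 and 11.45 at T0 and 12.70, 12.50 and 12.82 at T6. The times did not overlap in either genotype. In linear signal the mean went from 3055 ± 395 to 6246 ± 145 in WT and from 2725 ± 149 to 6533 ± 728 in KO (SD, n = 3). Shmt2 rose by 1.04 in WT (SE 0.12, 2.05-fold, limma adjusted p = 0.000191) and by 1.25 in KO (SE 0.12, 2.38-fold, adjusted p = 7.63e-05). By the tested probe sets it was the only one of the 8 genes whose log2 change was larger in KO than in WT. That difference of 0.22 was not called (SE 0.16, adjusted p = 1). For its other probe sets the difference was 0.04, -0.08 and -0.15, and for the Mthfd2 probe set not used for the gene it was 0.05, none called.

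Mthfd2, the mitochondrial dehydrogenase and cyclohydrolase, measured 10.08, 10.004 and 10.11 in WT T0 and 12.05, 11.48 and 11.69 in WT T6. In KO it measured 9.97, 10.49 and 10.11 at T0 and 11.85, 11.98 and 11.62 at T6. All T6 arrays exceeded all T0 arrays, and the WT T6 SD of 0.29 exceeded the WT T0 SD of 0.05. In linear signal the mean went from 1053 ± 38.7 to 3453 ± 711 in WT and from 1166 ± 229 to 3610 ± 444 in KO (SD, n = 3). The rise was 1.68 in WT (SE 0.17, 3.20-fold, limma adjusted p = 0.000119) and 1.63 in KO (SE 0.17, 3.09-fold, adjusted p = 0.000174).

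Mthfd1l, the mitochondrial formyltetrahydrofolate synthetase that releases formate, measured 11.28, 11.23 and 11.29 in WT T0 and 11.86, 11.58 and 11.54 in WT T6. In KO it measured 11.49, 11.25 and 11.27 at T0 and 11.47, 11.68 and 11.40 at T6. The WT groups did not overlap and the KO groups did. Mthfd1l rose by 0.39 in WT (SE 0.12, 1.31-fold, limma adjusted p = 0.0342), while its KO value of 0.18 was not called (SE 0.12, adjusted p = 0.330). The WT call was lost without WT T0 replicate 1 (adjusted p = 0.0729), 2 (0.0923) or 3 (0.0737) or WT T6 replicate 1 (0.12) or 2 (0.0523), with no filter (0.0628) and in a fit of the WT arrays alone (0.0589).

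Mthfd1, the cytosolic enzyme with several folate activities, varied more between the arrays of a group, with an SD of 0.30 in WT T0 and 0.35 in KO T0. The signal of Mthfd1 was 11.31, 11.60 and 11.91 in WT T0 and 11.93, 12.003 and 11.83 in WT T6, with 1 T0 array inside the T6 range. In KO it was 11.72, 12.09 and 11.39 at T0 and 11.75, 11.99 and 11.56 at T6, which overlapped. The log2 differences of 0.31 in WT (SE 0.20, limma adjusted p = 0.298) and 0.03 in KO (SE 0.20, adjusted p = 0.935) were not called. Within each of the 4 groups the 3 arrays fell in the same order by Mthfd1 as by the mean of 13 cycling cell markers. In WT T0 those marker means were 10.24, 10.72 and 11.11, and in KO T0 they were 11.44, 12.08 and 10.84. The summed signal of the 13 markers ranged from 32715 to 45154 in WT T0, 32906 to 40562 in WT T6, 41597 to 77874 in KO T0 and 37451 to 80346 in KO T6. None of the other 7 genes had the same order as the markers in more than 2 of the 4 groups. By the mean of the erythroid markers the arrays also fell in the Mthfd1 order in WT T0, KO T0 and KO T6, but not in WT T6. Those erythroid means were 11.06, 12.05 and 9.45 in KO T0 and 9.98, 12.26 and 8.98 in KO T6. These comparisons were chosen after the values were seen, and the part of cycling or erythroid cells in the Mthfd1 signal was not tested.

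**Figure D2:**
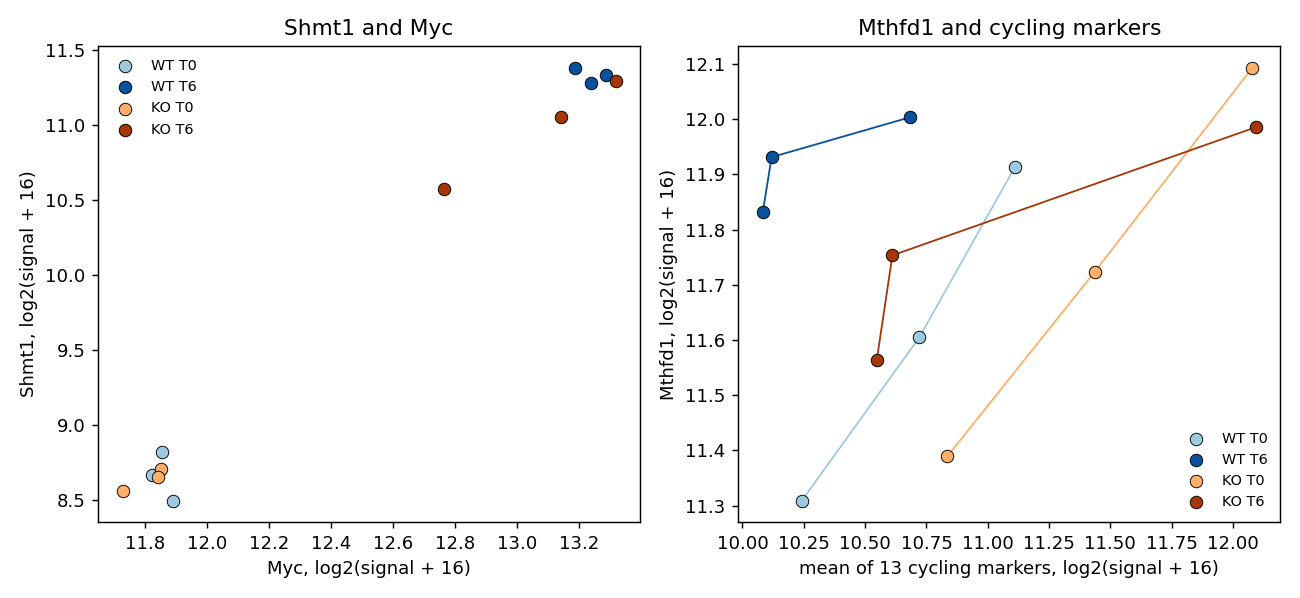
Left, Shmt1 against Myc on the 12 arrays, and right, Mthfd1 against the mean of 13 cycling cell markers, all as log2(signal + 16). Colours give the group, and lines on the right join the 3 arrays of a group. The T0 and T6 arrays form separate clusters on the left, with KO T6 replicate 2 lowest of the T6 arrays on both axes (Shmt1 10.57, Myc 12.77).

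The other probe sets of each gene mostly moved as the tested ones did. When every probe set was tested on its own, 15 of the 21 rose in WT (9.84% of all 24539 probe sets) and 13 in KO (8.79%), and none fell. All 4 Phgdh probe sets rose in WT, by 0.42 to 0.69, and 3 of them in KO. Both Psat1 probe sets rose in both genotypes (1.57 in WT and 1.20 in KO for the one not used for the gene), as did both Mthfd2 probe sets (1.52 and 1.57). Of the 4 Shmt1 probe sets, besides the tested one, 2 rose by 1.86 and 2.09 in WT. The last was called in both genotypes and is part of both counts above. Its size is not given, because its mean lay at 4.98 in WT T0 and 5.53 in KO T0, below the filter level. This probe set exceeded that level on 8 arrays, all of its T6 arrays among them, and so passed the filter through its T6 signal.

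Of the 4 Shmt2 probe sets, the tested one and 1 other rose in both genotypes (1.02 in WT and 1.07 in KO for the latter). The other 2, at 7.11 and 8.01 in WT T0, gave 0.82 and 0.47 in WT and were not called (limma adjusted p = 0.192 and 0.176). The 3 Mthfd1 probe sets gave 0.24 to 0.31 in WT and -0.17 to 0.03 in KO, none called. Several of the 21 probe sets carry the suffix x or s, which Affymetrix gives to probe sets with probes that can also match other transcripts. Every Phgdh probe set and the tested Shmt2 probe set carry the suffix x. In KO against WT at T6 none of the 21 was called, against 117 of all 24539 probe sets. Of the 21, 18 had a negative log2 difference, and at T0 the split was 10 positive to 11 negative. Over all genes tested, 57.12% were higher in KO at T6. The 21 probe sets measure 8 genes on the same arrays, so their directions are not independent. A further 2 probe sets that the annotation assigns to Phgdh together with another gene were left out.

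**Figure D3:**
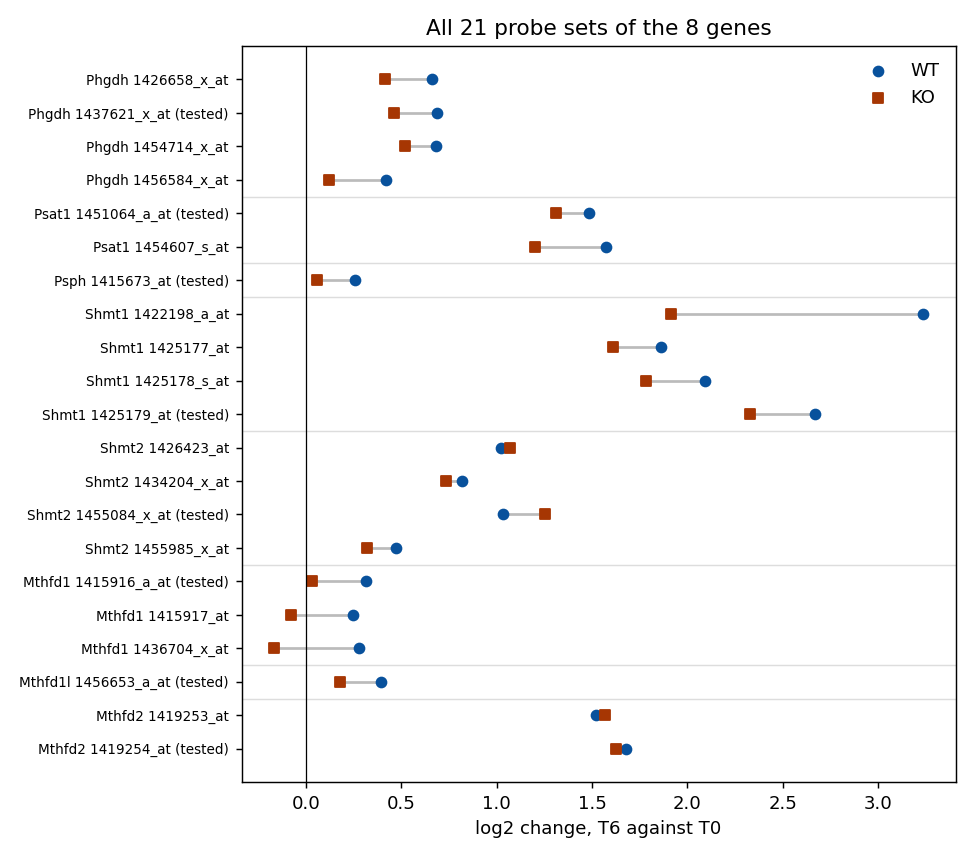
Log2 change from T0 to T6 (x axis) of each of the 21 probe sets in WT (circles) and KO (squares), grouped by gene; the probe set used for the gene is marked as tested. All 21 WT values and 19 of the 21 KO values are above 0, and the 2 below 0 belong to Mthfd1.

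The comparison of KO with WT asks whether loss of Scap changed these enzymes. None of the 8 was called at T0, where 0.038% of all genes were called in either direction, and none at T6, where 0.0988% were. With so small a background, a count of 0 of 8 says little about these genes. At an unadjusted p under 0.05 the count was 0 of 8 at T0, against 1286 of the 13156 genes tested, and 1 of 8 at T6 (Phgdh), against 1549, a share near that of all genes. At T0 the log2 differences lay between -0.16 (Shmt2) and 0.13 (Mthfd2 and Mthfd1). The lowest bound of the 95% intervals at T0 was -0.42 (Shmt2) and the highest 0.57 (Mthfd1), and that of Psph was narrower, from -0.17 to 0.23.

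At T6 6 of the 8 differences were negative, with a median of -0.15 against 0.04 over all genes tested. Phgdh stood lowest, at -0.37 (SE 0.12, 95% interval -0.63 to -0.11, limma adjusted p = 0.287). Its 3 KO T6 arrays all lay below the 3 WT T6 arrays, as did 8.01% of all genes tested. Shmt1 stood at -0.36 (SE 0.16, 95% interval -0.73 to 0.00, adjusted p = 0.431), and its groups overlapped. The 2 genes with a positive value were Mthfd2 at 0.08 and Shmt2 at 0.06.

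KO T6 replicate 2 was the lowest KO T6 array for Phgdh, Psat1, Psph, Shmt1 and Shmt2 and the highest for Mthfd1, Mthfd1l and Mthfd2. Without it the log2 difference at T6 became -0.24 for Phgdh (limma adjusted p = 0.432), -0.16 for Shmt1 (0.692), -0.01 for Psat1 (0.98) and -0.14 for Psph (0.666). It moved away from 0 for Mthfd1, from -0.15 to -0.26 (0.731), for Mthfd1l, from -0.15 to -0.23 (0.551), and for Shmt2, from 0.06 to 0.15 (0.719), and Mthfd2 went from 0.08 to -0.0041 (0.996). The same array had a summed erythroid marker signal of 39764 against 3570 and 8445 on the other KO T6 arrays and a summed CD8 T cell marker signal of 52440 against 63963 and 64152. In WT T6 the erythroid sum lay between 2206 and 5083 and the CD8 T cell sum between 72510 and 81597. The B cell sum was 21510 to 33330 in WT T6 and 32256 to 37680 in KO T6, and the myeloid sum 1145 to 2800 and 2914 to 6653. Ighm, the brightest B cell marker (14.50 in WT T6), weighs most on the B cell sum. The mean log2 of the B cell markers did not overlap, at 7.32 to 8.25 in WT T6 and 8.52 to 9.64 in KO T6. The erythroid marker Hba-a1 lay below the filter level in every group. The part of other cells in these differences was not tested. This comparison shares its arrays with the activation comparisons.

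The interaction, the activation change in KO minus that in WT, was called for none of the 8 genes and for none of the 13156 tested (limma), with 0 of the 8 and 604 of all genes at an unadjusted p under 0.05. Its values ran from -0.34 for Shmt1 (SE 0.23) to 0.22 for Shmt2 (SE 0.16). The 95% intervals spanned -0.91 to 0.58 over the 8 genes. A call in WT and none in KO for Mthfd1l is therefore not shown to be a difference between genotypes (-0.21, SE 0.17, adjusted p = 1).

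**Figure D4:**
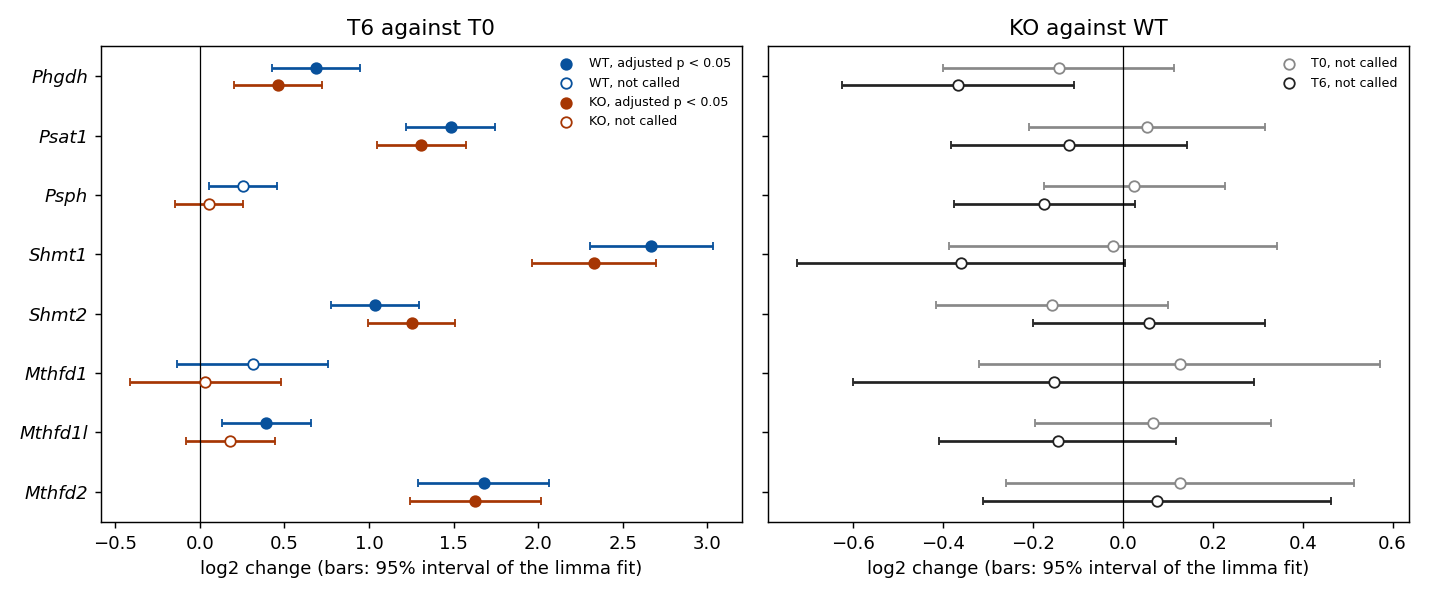
Log2 change of the 8 genes with 95% intervals of the limma fit, on the left from T0 to T6 in WT and KO and on the right from WT to KO at T0 and T6; the x axes differ in scale. Filled points have an adjusted p under 0.05. On the left 6 WT and 5 KO points are filled, and on the right none is.

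Genes around the pathway gave a mixed picture on activation. Of 11 other folate cycle enzymes tested, none rose and 1 fell in each genotype, where 13.8% of all genes fell in WT and 10.4% in KO. That gene was Atic, a late enzyme of purine synthesis that uses formyltetrahydrofolate, which fell by 0.47 in WT (SE 0.10, limma adjusted p = 0.00875) and by 0.58 in KO (adjusted p = 0.00333). The median of this list was -0.29 in WT and 0.03 in KO. Tyms, thymidylate synthase, lay near the filter level (6.36 in WT T0). It stood at -0.30 in WT and -0.39 in KO and was not called (limma adjusted p = 0.233 and 0.136). Aldh1l1 (6.58 in WT T0) and Ftcd (6.39) of this list also lay near that level. Aldh1l2, named after its values were seen, lay below it in WT T0 (5.10). Myeloid markers fell in the same comparison, 9 of 12 in each genotype with a median of -2.51 in WT, where their summed signal lay between 15461 and 20228 at T0 and between 1145 and 2800 at T6. In KO it was 21528 to 30617 at T0 and 2914 to 6653 at T6. Their part in changes of the bulk signal was not tested.

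Of 7 folate and serine carriers tested, 4 rose in each genotype, where 11.3% of all genes rose in WT and 10.4% in KO. Slc19a1, the reduced folate carrier, rose by 1.44 in WT (SE 0.13, limma adjusted p = 5.52e-05) and by 1.10 in KO. Its signal was 10.03, 9.98 and 10.26 in WT T0 and 11.52, 11.52 and 11.54 in WT T6. Slc1a5, a neutral amino acid transporter, rose by 1.01 in WT and 0.92 in KO, and Slc1a4, which carries serine and alanine, by 1.38 and 1.11 from a level near the filter (6.42 in WT T0). Slc25a32, the mitochondrial folate carrier, rose by 0.47 and 0.37 and was named after its values were seen. Of the glycine cleavage genes 2 were tested, and Gcsh, which encodes its lipoyl carrier protein, rose by 1.12 in WT and 0.81 in KO.

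In the methionine cycle and transsulfuration list 3 of 9 genes rose in each genotype, against the same 11.3% and 10.4% of all genes. These were Mtrr, which reactivates methionine synthase (0.78 in WT, 0.51 in KO), Ahcyl1 (0.49 and 0.45) and Ahcyl2 (0.37 and 0.38). The other 6 were not called in either genotype. Among them, Ahcy, named after its values were seen, stood at 0.34 in WT and 0.21 in KO (limma adjusted p = 0.109 and 0.343). Mtr stood at -0.06 and -0.34 (limma adjusted p = 0.814 and 0.155). Among 7 genes of serine use 2 rose in WT and 1 in KO, against those same shares. Sptlc1, a subunit of the enzyme that joins serine to palmitoyl-CoA for sphingolipids, rose by 1.25 in WT and 1.12 in KO. Ptdss1, a phosphatidylserine synthase, rose by 0.40 in WT and stood at 0.22 in KO (limma adjusted p = 0.137). None of the genes in these lists was called in KO against WT at either time.

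**Figure D5:**
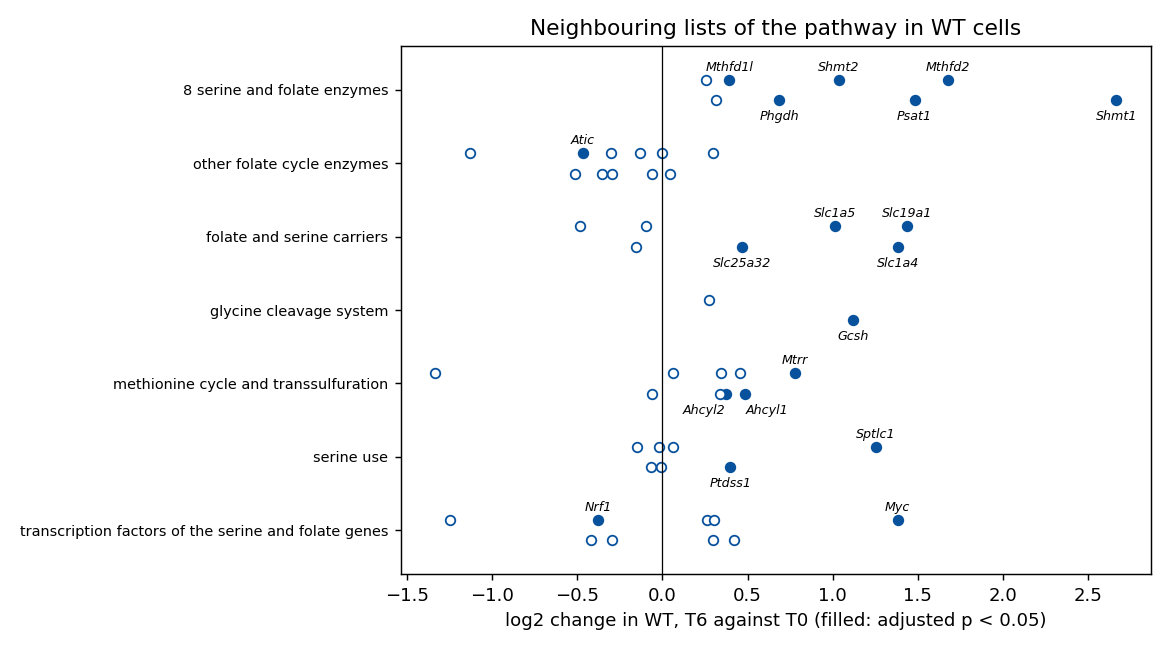
Log2 change from T0 to T6 in WT (x axis) of every tested gene in the 8-enzyme set and in 6 lists around it (rows); filled points have an adjusted p under 0.05 and carry their name. Filled points lie above 0 in all rows except those of the other folate cycle enzymes (Atic, -0.47) and of the transcription factors, where Nrf1 is at -0.38 and Myc at 1.38.

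Of 9 transcription factors linked to serine and folate genes, Myc rose in both genotypes, by 1.38 in WT (SE 0.13, limma adjusted p = 5.52e-05) and 1.27 in KO (adjusted p = 0.000123). Its signal was 11.86, 11.89 and 11.83 in WT T0, 13.29, 13.24 and 13.19 in WT T6, 11.85, 11.84 and 11.73 in KO T0 and 13.32, 12.77 and 13.14 in KO T6. Atf4, the factor known for inducing serine synthesis genes under amino acid stress, stood at 0.26 in WT (adjusted p = 0.120) and 0.32 in KO (adjusted p = 0.0707), neither called. Atf5, a related factor, rose in KO by 0.72 (adjusted p = 0.0112) and stood at 0.30 in WT (adjusted p = 0.217), and the difference between these was not called (0.42, adjusted p = 1). Nrf1 fell by 0.38 in WT (limma adjusted p = 0.0149) and stood at -0.17 in KO (adjusted p = 0.236, not called). The difference between these, 0.20, was not called.

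Over the 12 arrays, the 2 tested genes most like each enzyme were found by Pearson correlation of log2 signal. Shmt1 was most like Myc (r = 0.995) and Slamf1 (0.994), and Psat1 most like Socs1 (0.994) and Mrpl17 (0.992). Mthfd2 was most like Rbm8a (0.993) and Plagl2 (0.992), Shmt2 most like Crabp2 (0.987) and Timm17a (0.985), and Phgdh most like Npm1 (0.975) and Rnf149 (0.971). The highest values were lower for Mthfd1 (Nsmce4a, 0.955), Mthfd1l (Erg28, 0.916) and Psph (Parg, 0.887). All such values share the division of the arrays into T0 and T6, which any gene that responds to activation also shows, and describe these arrays only.

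Correlations among the 8 genes share that division too. Psat1 and Shmt1 correlated at 0.988 over the 12 arrays and at 0.50 once group means had been subtracted. Psat1 and Mthfd2 gave 0.962 and 0.01. Mthfd1 correlated with each of the other 7 genes at 0.21 to 0.47 over the 12 arrays.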

How the data were processed

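The deposited values are linear signal intensities of Affymetrix probe sets, made by the authors with GCOS, per the submitters' processing notes. The software's version, background correction and probe summary are not given in the sources used here. A trimmed mean of 500.003 on all 12 arrays shows that arrays had been scaled before deposit. Of 45101 probe sets, 34945 carried 1 gene symbol, updated through gene identifiers to assembly GRCm38.p6.

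Signals were used as log2(signal + 16), which understates changes of dim genes, without further normalization. Each gene took its probe set with the highest mean, kept if 3 or more arrays had it over percentile 40, which gave 13156 genes. The test was limma 3.58.1 under R 4.3.3 (lmFit, eBayes, two-sided), with 1 coefficient per group, 5 contrasts and Benjamini-Hochberg adjustment. It was checked on simulated data with log2 changes of 0.5, 1 and 2. For WT activation 21.9%, 65.2% and 86.6% of these were recovered, and for KO against WT at T6 27%, 56.7% and 88.3%. Most changes of 0.5 were thus missed. The labels call the 3 arrays of a group biological replicates and tie none to a mouse, and precision is limited by how many arrays there are.

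The enzymes, the lists and the rule for naming other genes (up to 3 of a list per comparison by smallest p, and the 2 genes most like each enzyme) were chosen with earlier results of these data known. Alternatives covered the added constant, the filter, scaling, the use of probe sets, separate fits, replicate blocks and arrays left out.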

Additional observations from a re-analysis of the deposited data

How the results depend on the processing

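The number of the 8 genes called was 5 to 7 in WT activation (6 as reported) and 4 to 5 in KO activation (5 as reported) over 24 alternatives each. It was 0 in KO against WT at both times over 24 alternatives and in the interaction over 23. Shmt1, Psat1, Mthfd2 and Shmt2 were called higher in both genotypes, and Phgdh in WT, under all 24. With a replicate block as a fixed term the counts were 6 in WT, 5 in KO and 0 elsewhere, and as a random term 7, 5 and 0, with Psph added. Same-numbered T0 and T6 arrays, after group means were subtracted, correlated at 0.18, 0.46 and 0.38 in KO and at 0.23, -0.06 and -0.12 in WT. Differently numbered arrays gave -0.40 to 0.145 in KO, all below the same-numbered ones, and -0.16 to 0.23 in WT, where the ranges mixed. The numbers may therefore mark pairs in KO. They were not taken as pairs in the main fit, since the labels do not say which arrays share a mouse. Over all genes, calls ranged from 1 to 10 at T0 (5 as reported), 0 to 117 at T6 (13), 0 to 1 in the interaction (0), 2407 to 5409 in WT activation (3302) and 1920 to 4818 in KO activation (2746). Median centring shifted the median gene by 0.12 in WT activation.

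The sign turned only for values that were never called. With quantile normalization KO activation of Mthfd1 was -0.0043. With a gene's probe sets averaged it was -0.0704, Shmt1 at T0 was 0.1028 and Shmt2 at T6 was -0.0645. Median centring gave -0.008 for Shmt2 at T6. Without both KO replicate 2 arrays, Mthfd1 was -0.0527 and Mthfd2 -0.0236 at T0, Mthfd2 was -0.0041 at T6, and its interaction was 0.0195. Leaving out 1 array at a time gave -0.1406 to 0.2115 for KO activation of Mthfd1. In KO against WT at T0 it gave -0.0527 to 0.2994 for Mthfd1, -0.0077 to 0.1105 for Mthfd1l, -0.0236 to 0.2387 for Mthfd2, -0.0174 to 0.1356 for Psat1, -0.0102 to 0.0572 for Psph and -0.1047 to 0.057 for Shmt1. At T6 it gave -0.0548 to 0.2321 for Mthfd2 and -0.0152 to 0.1459 for Shmt2, and in the interaction -0.1821 to 0.1047 for Mthfd2. The cause was not tested.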
